A study of Arabidopsis thaliana with 9 samples.

Results

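Gene expression at the opposite ends of AGL15 activity was compared directly in Arabidopsis thaliana somatic embryo cultures: 3 arrays of 35S:AGL15 against 3 arrays of the agl15 agl18 double mutant, 6 of the 9 arrays of the series. The arrays were taken by genotype, and all 22746 probe sets that are not array controls were used. In 35S:AGL15 the AGL15 gene is driven by the 35S promoter of a plant virus, which is active in most cells and not only where AGL15 is normally made. The double mutant carries the alleles agl15-4 and agl18-1, so it lacks function of AGL15 and of its relative AGL18. Both lines are in the Columbia background, as is the wild type, whose 3 arrays enter here only as levels set beside the other genotypes and to share the estimate of the spread. By the description of the series, constitutive AGL15 raises and the double mutation lowers the number of somatic embryos that arise at the shoot apex.

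All 3 genotypes were germinated in shaken liquid MS medium with 2% sucrose, 10 mM MES and 4.5 µM of the synthetic auxin 2,4-D, with a light period of 23 h and a dark period of 1 h. Tissue was frozen on day 10, and 4 µg of total RNA per sample was labelled. The labels call the replicates biological, without saying what was grown separately. They do not say how many independent transgenic lines 35S:AGL15 stands for. Whole culture tissue was measured, so fewer cells of a type and less RNA per cell cannot be told apart.

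AGL15 is a MADS-domain transcription factor that accumulates in plant embryos and binds CArG-box DNA motifs, through which it both activates and represses genes. Cultured zygotic embryos and seedling shoot apices form somatic embryos more readily when AGL15 is in excess, and AGL18 acts partly in its place. Auxin in the medium starts this route, and embryo genes, hormone response genes and stress genes are among those known to change along it.

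AGL15 itself was not analysed here. AGL18 (AT3G57390) had an intensity of 55.8, 52.4 and 90.8 in 35S:AGL15 and 113, 68.5 and 62.6 in the double mutant. The groups overlapped, and the gene was not called (log2 difference −0.29 ± 0.29 (SE), adjusted p = 0.545; limma with Benjamini-Hochberg adjustment, here and throughout). Wild type measured 171, 177 and 189, above every array of both other genotypes. Where this probe set lies relative to the insertion is not given in the sources used here, so the signal left in the double mutant checks the label only in part. Among shoot meristem and embryo markers, LAS, an axillary meristem regulator, and BBM, an embryo-promoting AP2-domain gene, lay above background on all 6 arrays. UFO lay below it on all 6, and none of these 3 was called (LAS: log2 difference −0.68 ± 0.31 (SE), adjusted p = 0.181; BBM: adjusted p = 0.931; UFO: adjusted p = 0.899). CLV3 was below background in both groups, while STM, WUS and the LEC genes were not analysed here.

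Between the genotypes, 3567 probe sets (15.7%) passed an adjusted p under 0.05: 2369 (10.4%) were higher and 1198 (5.27%) lower in 35S:AGL15. The 3 arrays of one genotype did not overlap those of the other for 7719 probe sets (33.9%). The direction of the majority depended on how the arrays were scaled. After quantile normalization 3198 probe sets (14.1%) passed, 1672 higher (7.35%) and 1526 lower (6.71%), so that the share of lower calls went from 33.6% to 47.7%. It was 67.6% after centring each array on its median and 6.86% after scaling on the spiked bacterial and phage controls. The median log2 difference over all probe sets was 0.08 as deposited, −0.00 after quantile normalization, −0.20 after median centring and 0.60 with spike-in scaling, and changes are to be read relative to it. On both the deposited and the quantile scale 2664 probe sets (11.7%) passed in the same direction, 1614 higher (7.1%) and 1050 lower (4.62%).

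The counts also depended on single arrays. Without 35S:AGL15 replicate 1, 1032 probe sets passed. Without double mutant replicates 1, 2 and 3 the counts were 2007, 2042 and 1162, and without wild type replicate 2 it was 2153. The spiked controls were brighter on 35S:AGL15 replicate 3 (mean log2 intensity 9.76) and on the double mutant arrays (10.12, 9.81 and 9.41) than on 35S:AGL15 replicates 1 and 2 (9.04 and 8.96). With a term for those arrays, which in effect sets 35S:AGL15 replicate 3 against the double mutant, 290 probe sets passed, 147 higher and 143 lower. The 25S ribosomal RNA probe set was also brighter in the double mutant, at 19836, 15283 and 15437 against 10256, 12465 and 13667. Its part, and that of labelling, in the differences below was not tested.

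**Figure D1:**
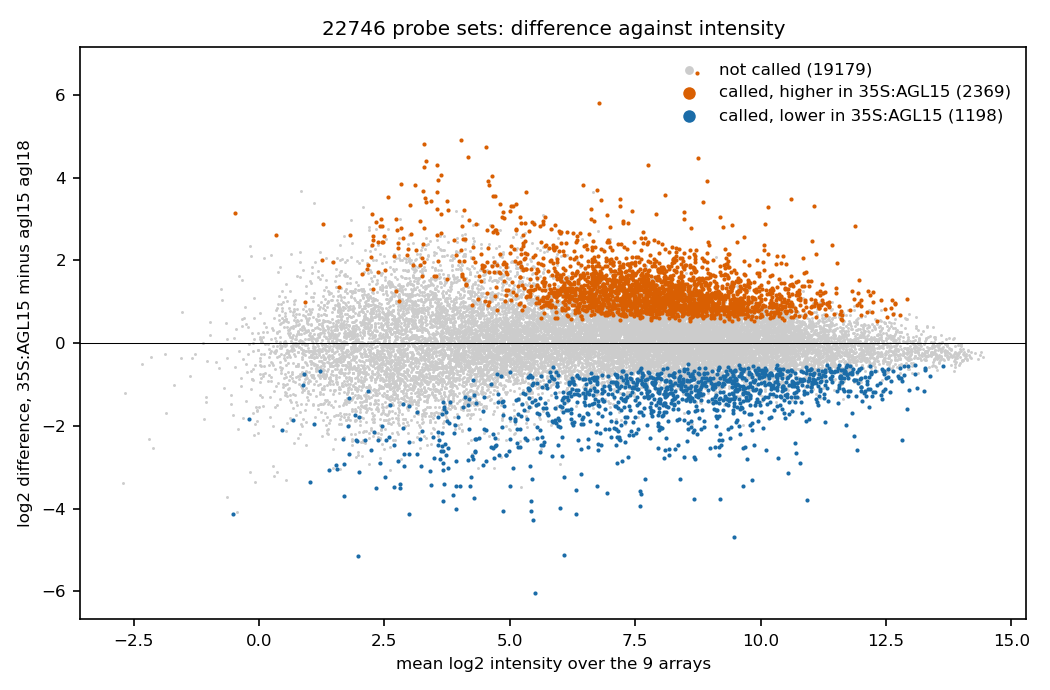
Each point is 1 of 22746 probe sets, placed by its mean log2 intensity over the 9 arrays (horizontal axis) and its log2 difference of 35S:AGL15 from the double mutant (vertical axis). Orange points (2369) were called higher and blue points (1198) lower in 35S:AGL15 on the deposited scale, and grey points were not called.

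Few of the called probe sets were dim. Split into 4 equal classes by mean intensity, the dimmest class had 4.57% called, the next classes 18.1% and 22.7%, and the brightest 17.4%. The plot of difference against intensity shows the surplus of higher calls in the middle of the range: 13.2% higher against 4.85% lower in the second class, and 17.2% against 5.52% in the third. In the brightest class the shares were 8.95% higher and 8.44% lower. Counted by gene, 1356 of 13355 genes (10.2%) were higher and 582 (4.36%) lower, 14.5% in all. Only 1557 of those genes have a symbol in the reference table, and the other 11798 are known there by a locus code alone, of which 1194 were higher and 479 lower. Pseudogenes were seldom called, 26 of 923.

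A total of 880 genes were higher and 459 lower on both scales with no overlap of the groups and every array of the higher group above background, and 765 and 378 of them have only a locus code. Differences of at least 2 log2 units were seen in 109 of the higher and 61 of the lower genes. The wild type level divided these genes. Of the 880 higher genes, wild type overlapped the 35S:AGL15 arrays in 473 and lay above both genotypes in 227, so the double mutant was the low genotype. It lay between the genotypes in 89 and overlapped the double mutant in 74. Of the 459 lower genes, wild type overlapped 35S:AGL15 in 211, overlapped the double mutant in 131 and lay between in 67. These counts describe levels and were not tested.

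Of the 20 genes with the largest excess in 35S:AGL15, 15 have a locus code only, and the files and the reference table give them no function. The gene with the largest difference was AT1G23160, at 1029, 837 and 439 in 35S:AGL15 and 8.5, 21.9 and 11.5 in the double mutant. All 3 arrays of 35S:AGL15 lay far above background and only 1 of the double mutant did, so no fold is given (log2 difference 5.81 ± 0.46 (SE), adjusted p = 0.00176). Wild type lay between, at 211, 109.9 and 124. CP1 (AT4G36880), a cysteine protease of the papain class, followed the same order, at 514, 463 and 798 in 35S:AGL15 and 52.5, 77.9 and 32.9 in the double mutant, with 107, 128 and 92.7 in wild type. It was 11.2-fold higher in 35S:AGL15 (log2 difference 3.49 ± 0.35 (SE), adjusted p = 0.00313). AT4G20230 and AT5G60760 were graded in the same way, with log2 differences of 4.03 and 3.31, and lay below background on every double mutant array (at least 3.36-fold and 3.42-fold higher). A bound sets the mean of the higher group against the background level of the arrays of the other.

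For 11 of the 20, wild type overlapped the double mutant and 35S:AGL15 stood alone. LCR67 (AT1G75830), also called PLANT DEFENSIN 1.1, a small secreted antimicrobial protein, was at 1456, 1529.7 and 2409 in 35S:AGL15 and 79.6, 95.8 and 90.5 in the double mutant. Every 35S:AGL15 array exceeded every other array of the series by a wide margin, since wild type measured 44.9, 45.2 and 134. The gene was 19.8-fold higher than in the double mutant (log2 difference 4.31 ± 0.43 (SE), adjusted p = 0.00313). The neighbouring loci AT5G38170 and AT5G38180 rose together: AT5G38170 measured 2606, 1040.4 and 1669.6 in 35S:AGL15 and 191, 104 and 137 in the double mutant (log2 difference 3.57 ± 0.43 (SE), adjusted p = 0.00482). AT5G38180 measured 199, 123 and 133 in 35S:AGL15 and was below background on every double mutant array, at least 5.26-fold lower (adjusted p = 0.00799). AT5G38160, the next locus, was also higher (log2 difference 2.44, adjusted p = 0.00482). Whether probe sets of adjacent loci share signal was not tested.

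XTH26 (AT4G28850), a xyloglucan endotransglucosylase/hydrolase of the cell wall, was at 63.2, 53.3 and 51.8 in 35S:AGL15 and 2.21, 7.42 and 5.06 in the double mutant. The double mutant and the wild type (3.75, 4.31 and 3.11) were both below background, and 35S:AGL15 was at least 1.99-fold higher (log2 difference 3.68 ± 0.40 (SE), adjusted p = 0.0038). BGLU19 (AT3G21370), a beta-glucosidase, measured 38.2, 182 and 126 in 35S:AGL15 and 5.66, 1.55 and 3.66 in the double mutant, at least 3.4-fold higher (adjusted p = 0.0103). AT1G47540 was above background on every array, at 2065, 1772 and 1277 in 35S:AGL15 and 282, 71.1 and 189 in the double mutant, and 10.7-fold higher (log2 difference 3.42 ± 0.55 (SE), adjusted p = 0.0101). AT1G65810, AT3G11870, AT3G06160 and AT3G21680 were below background in the double mutant, with bounds of 2.12, 1.62, 1.53 and 3.45-fold. AT4G36700 was uneven within 35S:AGL15, at 283, 348 and 44.1, and 2.21, 3.62 and 28.1 in the double mutant (adjusted p = 0.0333).

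For the remaining 5, wild type resembled 35S:AGL15 or exceeded it, and the double mutant was low. AT1G65570 measured 1444, 971 and 1600.5 in 35S:AGL15 and 131, 94.2 and 51.8 in the double mutant, with 1001, 1321 and 818 in wild type. The double mutant was 15.2-fold below 35S:AGL15 with no overlap (log2 difference 3.93 ± 0.37 (SE), adjusted p = 0.00276). CHR23 (AT5G19310), an ATPase of the SNF2 chromatin remodelling class, was at 48.8, 124 and 34.7 in 35S:AGL15 and 1.9, 18.3 and 6.09 in the double mutant, at least 2.11-fold higher in 35S:AGL15 (adjusted p = 0.0292). AT2G25350 and AT1G79620 were below background on every double mutant array (bounds of 1.68 and 2.3-fold), and AT3G19515 on 2 of 3 by the probe set with the larger change (log2 difference 3.64 ± 0.84 (SE), adjusted p = 0.0264). A second, brighter probe set of AT3G19515 was above background on every array, at 929.7, 779 and 519.8 in 35S:AGL15 and 146, 236 and 185 in the double mutant, 3.89-fold higher in 35S:AGL15 (log2 difference 1.96 ± 0.26 (SE), adjusted p = 0.00616).

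The 20 genes with the largest excess in the double mutant were led by AT2G25510, at 72.5, 243 and 166 in 35S:AGL15 and 3349.6, 4088 and 3565 in the double mutant. The groups stood far apart, by 25.5-fold (log2 difference −4.67 ± 0.46 (SE), adjusted p = 0.00313), and wild type lay between them at 822, 941 and 434. AT1G51000 and AT5G58120 were graded in the same way but were below background on every 35S:AGL15 array, at least 2.96-fold and 1.84-fold lower. Whether the probe set of AT1G51000 also reads other transcripts was not tested. SWEET11 (AT3G48740), a plasma membrane sucrose exporter, was at 284, 322 and 408 in 35S:AGL15 and 2468, 3145 and 3353 in the double mutant. Its arrays varied little within a genotype, which gave it the lowest adjusted p among the named genes (log2 difference −3.15 ± 0.21 (SE), adjusted p = 0.000976), and wild type (3067, 3854 and 3280.4) was at the level of the double mutant.

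Wild type overlapped the double mutant in 15 of these 20 genes, SWEET11 included, so that 35S:AGL15 was the low genotype. FDH (AT5G14780), a mitochondrial formate dehydrogenase that oxidises formate to carbon dioxide, was at 163, 319.7 and 169 in 35S:AGL15 and 797, 2222 and 1676 in the double mutant, 6.97-fold lower in 35S:AGL15 (log2 difference −2.80 ± 0.42 (SE), adjusted p = 0.0081). AT1G49470 measured 30.4, 62.8 and 44.4 in 35S:AGL15 and 379, 397 and 525 in the double mutant, 9.76-fold lower (log2 difference −3.29 ± 0.30 (SE), adjusted p = 0.00254). In both genes the lowest double mutant array was above the highest 35S:AGL15 array by more than the whole range of the latter. The close loci AT4G12490 and AT4G12500 fell together, AT4G12490 at 80.2, 93.4 and 53.2 in 35S:AGL15 and 354, 1151 and 911 in the double mutant and AT4G12500 at 34.6, 37.1 and 52.9 in 35S:AGL15 and 169.8, 437 and 379 in the double mutant. They were 9.76-fold and 7.45-fold lower (adjusted p = 0.00616 and 0.00553). Whether the probe sets of these close loci share signal was not tested.

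AT4G22460 and AT4G22470, another adjacent pair of codes, also fell, and shared signal was not tested for them either. AT4G22470 was among the brightest of the 40 genes at 342, 1059 and 382 in 35S:AGL15 and 1901, 6008 and 4889.9 in the double mutant, where replicate 1 was the lowest array of the double mutant (log2 difference −2.89 ± 0.57 (SE), adjusted p = 0.0169). AT4G22460 measured 29.5, 31.8 and 5.55 in 35S:AGL15 and 107, 191 and 213 in the double mutant (adjusted p = 0.0166). AT1G35350, AT4G14090, AT4G13580, AT5G32630 and AT4G29570 were below background on all 3 arrays of 35S:AGL15, with bounds from 1.52-fold (AT5G32630) to 3.23-fold (AT4G13580). AT3G04000, AT3G19550 and AT5G43180 were above it on 1 array of 35S:AGL15 and had log2 differences of −3.17, −4.13 and −3.28. AT1G70985 was also below background on all 3 arrays of 35S:AGL15, at least 2.79-fold lower (log2 difference −2.79), and wild type overlapped 35S:AGL15. AT5G49640 was above background on 1 array of 35S:AGL15 (log2 difference −2.94), and wild type overlapped both genotypes.

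**Figure D2:**
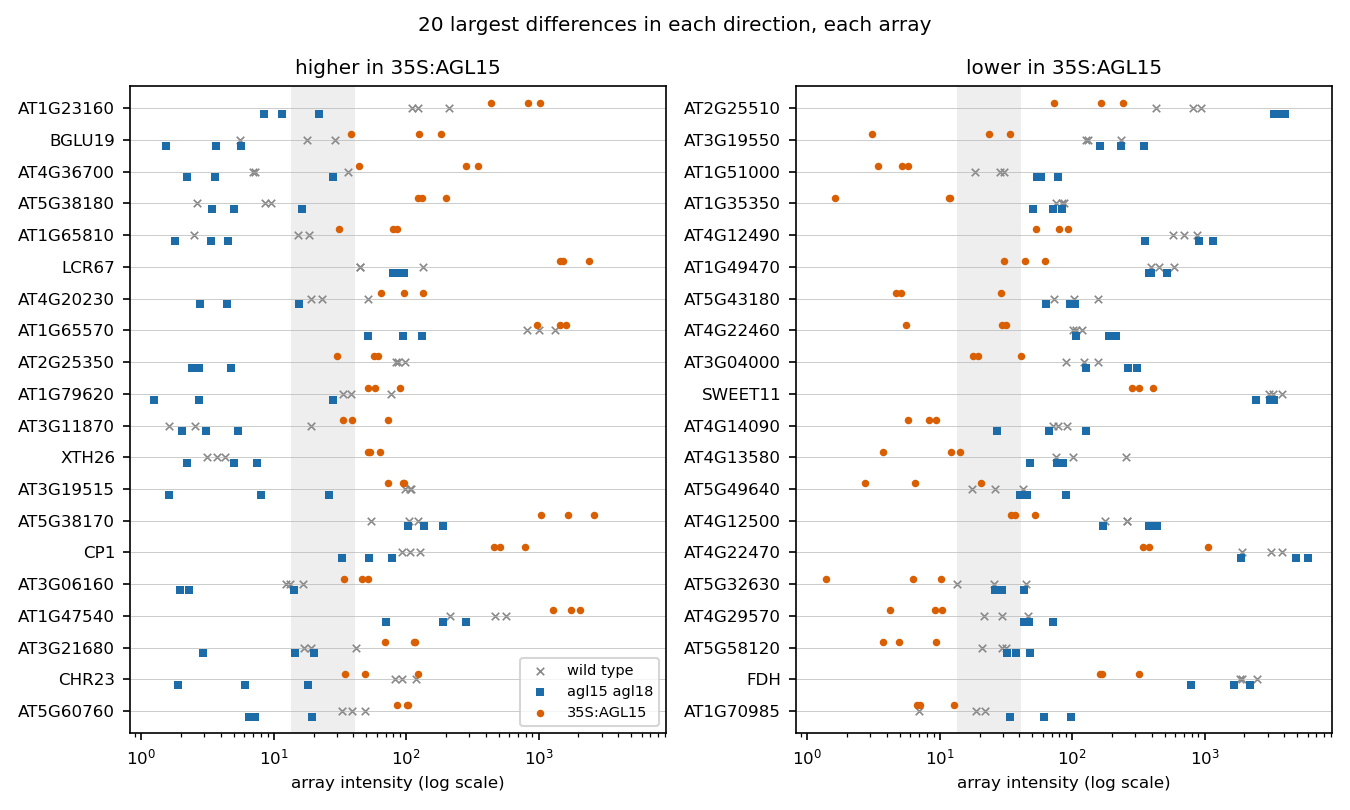
Array intensity on a log scale (horizontal axis) of the 20 genes most in excess in 35S:AGL15 (left) and the 20 most in excess in the double mutant (right), with 1 point per array: orange circles for 35S:AGL15, blue squares for agl15 agl18 and grey crosses for wild type. The grey band spans the background levels of the arrays, 13.7 to 40.5. The orange and blue points do not overlap in any row, which was a condition for choosing these genes.

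All 40 differences kept their direction under every alternative tried. This says little about them, because the genes were chosen as large, called differences without overlap of the groups. Leaving out a single array could not have reversed such a difference, so only the loss of calls is informative there. The calls of 23 held when any single array was left out. Without 35S:AGL15 replicate 1, 13 of the 40 calls ended, and 12 ended without double mutant replicate 3. AT1G79620 was the least firm, its call lost without any of 8 single arrays (highest adjusted p = 0.105), followed by AT4G36700 (0.107), AT5G49640 (0.087) and AT5G32630 (0.102), each lost without any of 6. With the term for arrays with brighter spike-in controls, 13 calls held, among them AT1G23160, LCR67, AT1G65570, CP1, AT2G25510, AT1G51000, SWEET11, AT1G49470 and AT4G12490.

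Since 20 of the 40 rest on a group below background, the largest differences among the brightest class of probe sets were also listed, a choice made after the values were seen. AT2G43590 rose from 583, 917 and 791 in the double mutant to 7608, 5240.0 and 10182 in 35S:AGL15, a 9.86-fold difference (log2 difference 3.30 ± 0.32 (SE), adjusted p = 0.00313), with 1268, 2164 and 2052 in wild type. AT5G24890 and AT1G32700 were 4.8-fold and 3.99-fold higher with wild type between. AT5G44380 was 5.15-fold higher than in the double mutant and higher still in wild type, at 6531, 7625 and 5693. In the other direction AT2G45180, AT4G16980 and AT2G10940 were 5.3, 5.8 and 5.49-fold lower in 35S:AGL15 (adjusted p = 0.023, 0.0147 and 0.0198). AT2G45180 measured 591, 776 and 1485 in 35S:AGL15 and 5229, 3979.9 and 4862 in the double mutant, and its wild type arrays spread from 565 to 2339.

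The gene lists below are counted by gene and are to be read against the 14.5% of all genes that were called, 10.2% higher and 4.36% lower. Of 12 measured genes for seed storage, oil body and LEA proteins, 4 were higher and none lower (33.3% called), with a median log2 difference of 0.83 against 0.08 over all probe sets. OLEO3 (AT5G51210), an oleosin that coats seed oil bodies, measured 2511, 1796 and 1485 in 35S:AGL15 and 899, 429.6 and 772 in the double mutant, 2.82-fold higher (log2 difference 1.5 ± 0.37 (SE), adjusted p = 0.0336), and wild type, at 288, 218 and 444, overlapped the double mutant. LEA27 (AT2G46140), a late embryogenesis abundant protein, was at 4074, 2884 and 4567 in 35S:AGL15 and 1944, 1493 and 1644 in the double mutant, 2.24-fold higher (log2 difference 1.16 ± 0.23 (SE), adjusted p = 0.0165). M10 and COR47, a dehydrin, had log2 differences of 1.64 and 0.96 (adjusted p = 0.0373 and 0.0294). In each of the 4 the genotypes did not overlap, although COR47 in wild type (8753, 9606 and 8830.0) was as high as in 35S:AGL15. M17 and PAP85, a vicilin-like storage protein, were not called, at log2 differences of 2.13 and 1.20.

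These 4 calls were not firm. Median centring left a median of 0.55 and no call. Each call ended without 35S:AGL15 replicate 1, and each ended without double mutant replicate 3, and the highest adjusted p without a single array was 0.114 for M10, 0.11 for OLEO3, 0.0612 for AT2G46140 and 0.0979 for COR47. Of the 3 embryo regulators measured (BZIP53, BBM and AGL18) none was called, and the same held for 3 genes of seed oil synthesis, whose median was −0.35 as deposited and 0.17 with spike-in scaling. FATB, which releases saturated fatty acids for export from the plastid, had the largest of the differences there (log2 difference −0.67, adjusted p = 0.14).

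Flowering time and MADS-domain genes had 2 higher and 2 lower of 44 (9.09% called, beside 14.5% of all genes). LD (AT4G02560), a homeodomain protein of the autonomous flowering pathway, measured 153, 265 and 99.9 in 35S:AGL15 and 33.6, 51.97 and 39.97 in the double mutant, 3.87-fold higher in 35S:AGL15 with 1 double mutant array below background (log2 difference 1.95 ± 0.36 (SE), adjusted p = 0.014), and was highest in wild type (378, 408 and 293). AGL87 (AT1G22590) was at 242, 120.4 and 192 in 35S:AGL15 and 67.4, 53.6 and 44.5 in the double mutant, 3.26-fold higher (log2 difference 1.71 ± 0.30 (SE), adjusted p = 0.013), with wild type overlapping the double mutant. ATC (AT2G27550), a relative of the floral repressor TFL1, was at 65.7, 133 and 102 in 35S:AGL15 and 262, 234 and 249.7 in the double mutant, 2.58-fold lower (log2 difference −1.37 ± 0.27 (SE), adjusted p = 0.0166). Both genotypes were far below the 825, 603 and 705 of wild type. The ATC call ended without double mutant replicate 3 (adjusted p = 0.0572). AGL33 was below background in both genotypes, and its call carries no fold. The median over the list was −0.30 as deposited and 0.23 with spike-in scaling.

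Few genes of auxin response and auxin conjugation were measured. Among 7 Aux/IAA genes, which encode repressors of auxin-induced transcription, IAA30 and IAA20 were higher and none lower (median 0.82, between 0.54 and 1.34 over the scalings). IAA30 (AT3G62100) measured 3614, 2590.5 and 3209 in 35S:AGL15 and 905, 1275 and 1178 in the double mutant, 2.81-fold higher (log2 difference 1.49 ± 0.25 (SE), adjusted p = 0.0113), and IAA20 (AT2G46990) measured 1540.3, 1197 and 1105 in 35S:AGL15 and 467, 543 and 572 in the double mutant, 2.41-fold higher (log2 difference 1.27 ± 0.21 (SE), adjusted p = 0.011). In both genes the 35S:AGL15 arrays stood apart, and wild type overlapped the double mutant. IAA30 is known as a direct target of AGL15 and is the called member of the 2 measured genes listed as bound by it. The other, AT5G61590, had a log2 difference of 0.68 and was not called (adjusted p = 0.125).

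GH3 enzymes attach amino acids to auxin and so lower its free level. GH3.17 (AT1G28130), which attaches glutamate, was at 3259.9, 3509 and 2744 in 35S:AGL15 and 1465, 1785 and 1388 in the double mutant, 2.05-fold higher (log2 difference 1.04 ± 0.19 (SE), adjusted p = 0.0144). GH3.3 (AT2G23170) ran the other way, at 5016, 7301 and 7668 in 35S:AGL15 and 17086, 12746 and 14112 in the double mutant, 2.22-fold lower (log2 difference −1.15 ± 0.21 (SE), adjusted p = 0.0141), with wild type between at 10051, 9653 and 9724. GH3.1 was also lower (log2 difference −1.38, adjusted p = 0.0499), a call that ended without any of 8 single arrays (highest adjusted p = 0.149). The GH3.17 call ended without 35S:AGL15 replicate 1 or double mutant replicate 3 (0.0574). With spike-in scaling no gene of this list of 9 was called lower and 2 were called higher. YUC6, an auxin synthesis gene, had a log2 difference of 2.11 and was not called.

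Other hormone lists held few called genes. EIN3 (AT3G20770), the central transcription factor of ethylene signalling, was at 2397, 2384 and 1485 in 35S:AGL15 and 754, 877 and 707 in the double mutant, 2.63-fold higher (log2 difference 1.39 ± 0.23 (SE), adjusted p = 0.0101), with wild type (2509.7, 2144 and 2400.1) at the level of 35S:AGL15. RR22 (AT3G04280), a cytokinin response regulator known mainly from developing seeds, was below background on every 35S:AGL15 array and above it on 2 of 3 double mutant arrays, at 1.8, 1.21 and 2.12 in 35S:AGL15 and 23.01, 41.9 and 25.6 in the double mutant. It was at least 1.38-fold lower in 35S:AGL15 (adjusted p = 0.00372). None of 4 gibberellin genes and none of 12 jasmonate and wound genes was called, although THI2.2, a thionin, and ATMYC1 had log2 differences of 2.17 and 2.87 (adjusted p = 0.0769 and 0.11). In the double mutant THI2.2 was above background on 1 array, and ATMYC1 was below it on every array. ATMYC1 was listed by its symbol, and a role in jasmonate response was not checked. After quantile normalization 2 jasmonate and wound genes were lower. Of 6 genes of the abscisic acid and cold response, COR47 alone was called.

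LCR67, described above, was the called member of 6 genes named as thionins or defensins. LCR68 (AT2G02130), a low-molecular-weight cysteine-rich gene outside that list and added after its values were seen, ran the other way, at 1329, 963 and 2324 in 35S:AGL15 and 6338, 5188 and 5421 in the double mutant, 3.91-fold lower (log2 difference −1.97 ± 0.33 (SE), adjusted p = 0.0107). ZAP1 (AT2G04880), a WRKY transcription factor, was the called member of 7 genes of the salicylate and WRKY list. ZAP1 was at 387, 417 and 294 in 35S:AGL15 and 23.5, 121 and 105 in the double mutant, with wild type at 436, 430.1 and 400.1 (log2 difference 2.44 ± 0.56 (SE), adjusted p = 0.0264), and double mutant replicate 1 was below its background. Its call ended without 35S:AGL15 replicates 1 or 2 (highest adjusted p = 0.0821). Glutathione transferases, which couple glutathione to toxins, had 4 of 12 higher and none lower (median 0.43). GSTU28 (AT1G53680) led at 128, 104 and 212 in 35S:AGL15 and 46.6, 39.8 and 22.9 in the double mutant, 4.05-fold higher with 1 double mutant array below background (log2 difference 2.02 ± 0.37 (SE), adjusted p = 0.014). GSTU25 and GSTU26 were 1.94-fold and 2.38-fold higher, and GSTF4 was highest in wild type. The calls of GSTU25, GSTU26 and GSTF4 each ended without 35S:AGL15 replicate 1 and without double mutant replicate 3 (highest adjusted p = 0.0664, 0.0713 and 0.104).

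UDP-glycosyltransferases, which attach sugars to hormones and small metabolites, had 6 of 46 lower and 2 higher (17.4% called, median −0.20, 0.32 with spike-in scaling, under which 1 was lower and 1 higher). UGT85A5 (AT1G22370) fell from 18.6, 23.3 and 28.2 in the double mutant, where 2 of 3 arrays were above background, to 3.26, 2.51 and 4.54 (adjusted p = 0.00482). UGT76C2 (AT5G05860), which inactivates cytokinins by N-glucosylation, ran the other way at 1176, 1276 and 756 in 35S:AGL15 and 357, 432 and 452 in the double mutant, 2.53-fold higher (log2 difference 1.34 ± 0.23 (SE), adjusted p = 0.0118). The 3 called peroxidases of 9 were all lower (median −0.60): PRX72 (AT5G66390), PRX52 and PRX25 (AT2G41480), with log2 differences of −1.90, −1.32 and −1.13. PRX72 was above background on 1 array of 35S:AGL15 and on all 3 of the double mutant, at 18.98, 15.02 and 29.7 in 35S:AGL15 and 71.95, 72.2 and 84.6 in the double mutant, and highest in wild type. The PRX52 call ended without any of 8 single arrays (highest adjusted p = 0.127).

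Cytochrome P450 genes had 1 of 24 higher and 2 lower (12.5% called). CYP71B26 (AT3G26290) was at 34.4, 37.1 and 23.8 in 35S:AGL15 and 114, 226 and 193 in the double mutant, 5.46-fold lower with 1 array of 35S:AGL15 below background (log2 difference −2.45 ± 0.32 (SE), adjusted p = 0.00578). CYP718 (AT2G42850) was at 334, 163 and 246 in 35S:AGL15 and 42.4, 65.1 and 66.5 in the double mutant, 4.18-fold higher (log2 difference 2.06 ± 0.33 (SE), adjusted p = 0.00979). CYP78A9, known as a regulator of fruit and seed size, was lower, with 1 array of 35S:AGL15 above background (log2 difference −2.45, adjusted p = 0.023). Of 20 beta-glucosidases, BGLU19, BGLU25 and BGLU46 were higher and BGLU40 was lower. BGLU25 was at 1535, 1043 and 1298 in 35S:AGL15 and 507, 588 and 506 in the double mutant, 2.4-fold higher (log2 difference 1.26 ± 0.20 (SE), adjusted p = 0.00967), and wild type (1188, 1157 and 1449) overlapped 35S:AGL15. None of the 10 genes matched to the flavonoid and anthocyanin list was called on the deposited scale and 1 was lower after quantile normalization. Genes without a name in the reference table, such as AT4G14090 above, may be missing from this list. UF3GT and DFR, of anthocyanin synthesis, had log2 differences of −1.13 and −1.06.

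Cell wall genes showed no common direction on the deposited scale, with 2 of 60 higher and 4 lower (median −0.10), but 9 were lower after quantile normalization and 15 after median centring. XTH26 and EXPA8, an expansin (log2 difference 0.88), were higher. PMEPCRF (AT5G53370), a pectin methylesterase, was at 107, 218 and 159.6 in 35S:AGL15 and 475, 715 and 875 in the double mutant, 4.3-fold lower (log2 difference −2.11 ± 0.34 (SE), adjusted p = 0.0101), with wild type overlapping the double mutant. CSLD2 (AT5G16910), a cellulose-synthase-like protein of tip-growing cells, was at 883, 1278 and 803 in 35S:AGL15 and 1969, 1923 and 1854 in the double mutant, 1.98-fold lower, while wild type (1056, 825 and 745) overlapped 35S:AGL15. ATPMEPCRD and PME61 were lower by log2 differences of −1.13 and −0.81. The CSLD2 and ATPMEPCRD calls ended without any of 6 and 7 single arrays (highest adjusted p = 0.0865 and 0.127). XTH26 was the called member of 4 root and root hair markers; EXPA7 and EXPA18, of root hairs, had log2 differences of 0.32 and −0.09 and were not called.

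Sugar transport leaned towards the double mutant, with 5 of 22 genes lower in 35S:AGL15, 3 higher and a median of −0.69 (−0.17 with spike-in scaling, under which 2 were lower and 3 higher). Besides SWEET11, the exporters SWEET13 (AT5G50800) and SWEET10 (AT5G50790), neighbours on their chromosome, were lower. SWEET13 was at 41.6, 57.9 and 71.1 in 35S:AGL15 and 240.1, 283 and 275 in the double mutant, 4.78-fold lower (log2 difference −2.26 ± 0.28 (SE), adjusted p = 0.00482), and wild type overlapped the double mutant. SWEET10 was at 19.2, 26.3 and 41.7 in 35S:AGL15 and 68.2, 114 and 124 in the double mutant (log2 difference −1.84 ± 0.33 (SE), adjusted p = 0.0135), and here wild type (23.1, 26.7 and 24.99) overlapped 35S:AGL15. The vacuolar sugar importers TMT1 and TMT2 were lower by log2 differences of −1.06 and −0.99. AtVEX1 (SWEET5), SWEET7 and TPP2 were higher, by 3.55, 1.09 and 1.49 on the log2 scale. TPP2 entered this list by its symbol, which does not settle that it acts on sugars. The count of 3 higher may thus include a gene of another function. AtVEX1 was above background on 1 double mutant array and was not called after quantile normalization (adjusted p = 0.0593). Its call as deposited ended without any of 7 single arrays (highest adjusted p = 0.122). ZIP6 (AT2G30080), a putative metal transporter, was at 12.4, 25.8 and 19.3 in 35S:AGL15 and 113, 123 and 130.5 in the double mutant, with 1 array of 35S:AGL15 above background (log2 difference −2.73 ± 0.38 (SE), adjusted p = 0.00661).

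**Figure D3:**
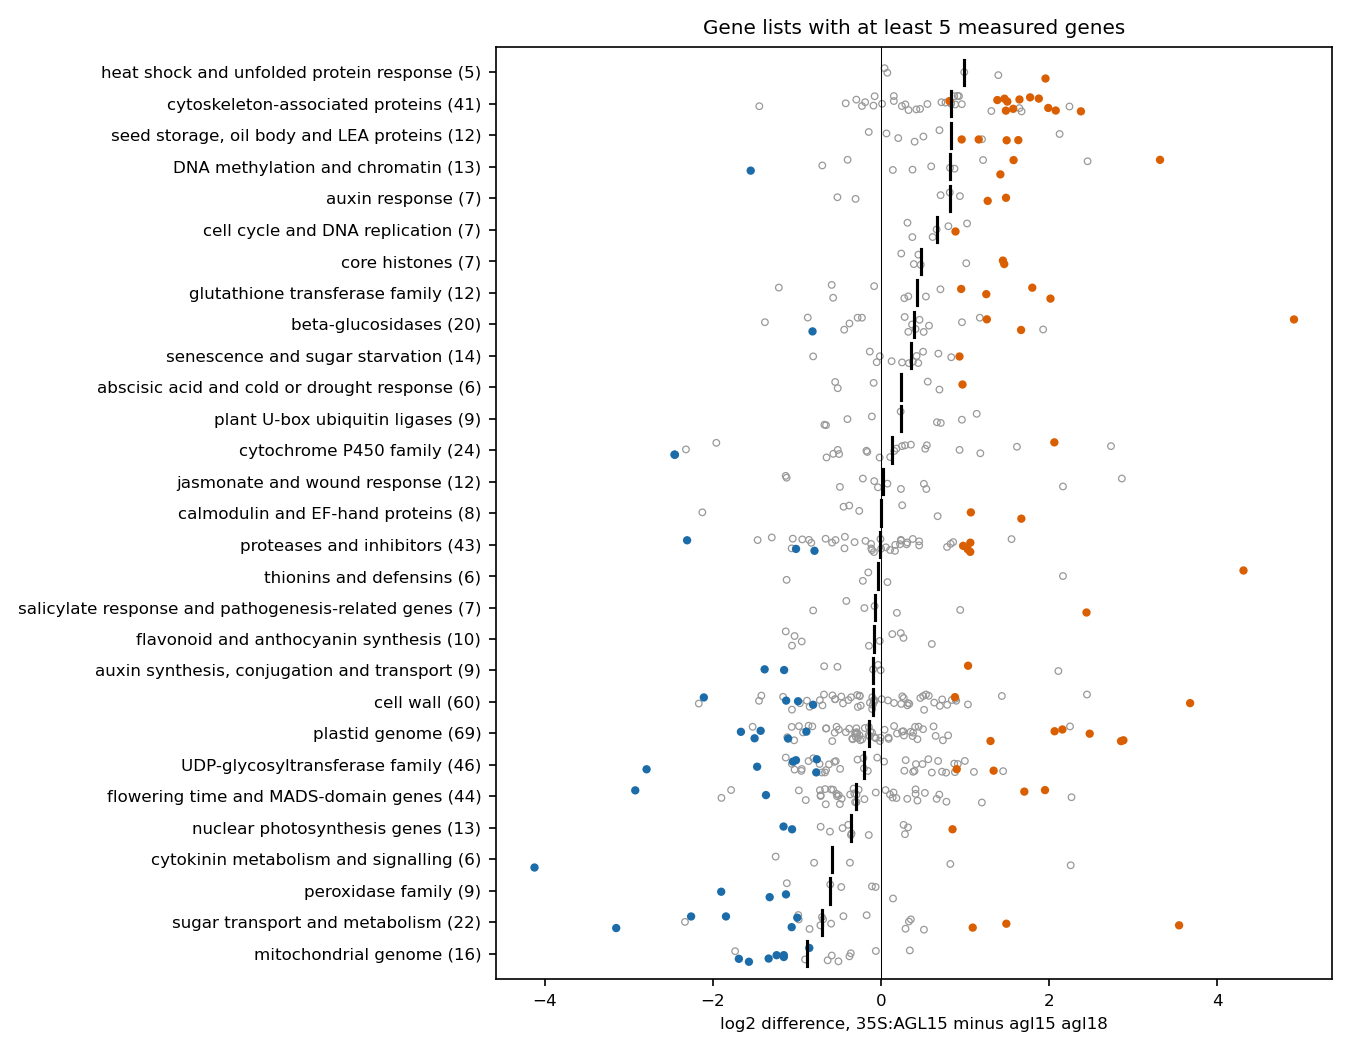
Log2 difference of 35S:AGL15 from the double mutant (horizontal axis) for each measured gene of the lists with at least 5 measured genes, whose number stands in brackets. Filled points were called (orange higher, blue lower in 35S:AGL15), open points were not, and black bars are list medians, from 0.99 for heat shock genes to −0.88 for mitochondrial genes.

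Cytoskeleton-associated proteins leaned towards 35S:AGL15 on each of the 4 scales, a list added after earlier results were known. TRM proteins place the cortical microtubule arrays that set the division plane, IQD proteins bind calmodulin at microtubules, and NET proteins bind actin. Of 41 measured, 12 were higher and none lower (29.3% called, median 0.84, 0.56 to 1.36 over the scalings, with 10 to 12 higher in each). iqd32 (AT1G19870) was at 296, 333 and 179.6 in 35S:AGL15 and 54.6, 64.8 and 66.4 in the double mutant, 4.23-fold higher (log2 difference 2.08 ± 0.25 (SE), adjusted p = 0.00482), and TRM24 (AT5G51850) was at 165, 133 and 59.01 in 35S:AGL15 and 31.02, 14.2 and 20.8 in the double mutant, at least 3.87-fold higher (adjusted p = 0.0136). In iqd32 the wild type (431, 394 and 347) was highest of all. In TRM24, NET4B and iqd33 it overlapped 35S:AGL15, so the double mutant was the low genotype in these genes. NET4B was 3.98-fold and iqd33, with 1 double mutant array below background, 3.68-fold higher, and NET1A, TRM19, TRM26, IQD31, IQD30, IQD19, iqd15 and KINESIN-12B, a motor of the phragmoplast, lay between 0.82 and 1.78 on the log2 scale. With the term for brighter arrays the median was 0.71, but 1 gene was called higher, against 12.

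Genes of the list were long, with a median gene length of 3055 bp against 2112 bp over 12223 nuclear protein-coding genes with a known length. Over those genes the median log2 difference went from −0.06 in the shortest of 4 length classes to 0.06, 0.17 and 0.25 in the longest, and from −0.11 to 0.11 after quantile normalization. For wild type minus the double mutant, as deposited, the median went from −0.12 in the shortest class to 0.49 in the longest. The shortest class had 5.56% higher and 5.52% lower, the longest 13.9% and 3.01%. The part of gene length in this list was not tested.

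Of 13 genes for chromatin factors, which are mainly SNF2-class remodelling ATPases, CHR23, CHR24 and CHR17 were higher and chr31 lower (median 0.82, with a median gene length of 4986 bp). With the term for brighter arrays the median fell to 0.10 and none was called higher. CHR17 (AT5G18620), an ISWI-class remodeller, was at 939, 1116 and 474 in 35S:AGL15 and 366, 263 and 268 in the double mutant, 2.68-fold higher (log2 difference 1.42 ± 0.32 (SE), adjusted p = 0.0251). Its lowest 35S:AGL15 array, replicate 3, still exceeded every double mutant array, and its call ended without 35S:AGL15 replicate 1 or double mutant replicates 2 or 3 (highest adjusted p = 0.085). CHR24 and chr31 lost their calls without any of 8 single arrays (0.106 and 0.121), and CHR23 without any of 5 (0.0806).

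Among 7 histone genes, which are short, HTB2 (AT5G22880), a histone H2B, was at 2432, 1749.9 and 2351 in 35S:AGL15 and 794, 879.8 and 699 in the double mutant, 2.74-fold higher (log2 difference 1.45 ± 0.22 (SE), adjusted p = 0.00867). HON4 (AT3G18035), a linker histone, was at 1141, 1250.2 and 785 in 35S:AGL15 and 317, 439 and 381 in the double mutant, 2.77-fold higher (log2 difference 1.47 ± 0.23 (SE), adjusted p = 0.00967). Both calls held under the loss of any single array, and wild type overlapped 35S:AGL15 in both. AUR1 (AT4G32830), a mitotic Aurora kinase, was at 1549, 1381 and 1876 in 35S:AGL15 and 915, 818 and 854 in the double mutant (adjusted p = 0.0231) and was the called member of 7 cell cycle genes (14.3%, near the 14.5% of all genes), whose median was 0.66. Its call ended without 35S:AGL15 replicate 1 or any double mutant array (highest adjusted p = 0.0764). FKBP65 (AT5G48570), a heat-induced peptidyl-prolyl isomerase also called ROF2, was 3.87-fold higher with double mutant replicate 1 below background (log2 difference 1.95 ± 0.41 (SE), adjusted p = 0.0208), and was the called member of 5 heat shock genes.

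The VPS and PRA1 genes were picked for their counts from 41 groups of genes with a shared symbol prefix, after the data were seen, so their counts are a description. In SEC, another group of membrane traffic, none of 9 was called (median 0.25). Of 10 VPS genes, most of them subunits of the ESCRT machinery that sorts membrane proteins to the vacuole, 5 were higher and none lower (median 0.55). VPS2.2 (AT5G44560) was at 1311, 888 and 1095 in 35S:AGL15 and 252, 319.7 and 303 in the double mutant, 3.74-fold higher (log2 difference 1.90 ± 0.23 (SE), adjusted p = 0.00482). VPS20.1, VPS24.1, VPS2.1 and VPS60.1 were higher by 1.23, 1.13, 0.82 and 0.80 on the log2 scale. After quantile normalization 3 VPS genes were higher and 1 was lower. Of 11 PRA1 genes, which encode small membrane proteins that receive Rab GTPases, 4 were lower and none higher (median −0.65). PRA1.B4 (AT2G38360) was at 343, 878 and 414 in 35S:AGL15 and 1635, 2486 and 2165 in the double mutant, 4.13-fold lower (log2 difference −2.05 ± 0.43 (SE), adjusted p = 0.0199), and after quantile normalization 6 PRA1 genes were lower.

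Of 43 proteases and inhibitors, 4 were higher and 3 lower (16.3% called, near the 14.5% of all genes). The 4 were serine carboxypeptidase-like genes, among them SCPL45 (AT1G28110) at 3677, 3094 and 3706 in 35S:AGL15 and 1893, 1486 and 1638 in the double mutant, 2.09-fold higher (log2 difference 1.06 ± 0.17 (SE), adjusted p = 0.0101), with scpl30, scpl48 and scpl20. Members of the same family also fell: SCPL27 and scpl35 were lower by log2 differences of −1.01 and −0.79, beside the subtilase ATSBT5.2. After median centring none was higher and 6 were lower. Of 14 autophagy and senescence genes, ATG8H was called higher, a call that ended without any of 8 single arrays (highest adjusted p = 0.124). CML43 and CML30, calmodulin-like proteins, were higher among 8 as deposited (1.67 and 1.07), and neither was called after quantile normalization. None of 9 plant U-box genes was called as deposited.

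Organelle-encoded transcripts were called in both directions. Of 69 plastid genes, 6 were higher and 5 lower in 35S:AGL15, with a median of −0.15. The 15.9% called is near the 14.5% of all genes. Among all measured genes with the symbol prefix rpl, 4 of 7 were higher, and with the prefix rps 2 of 8. The higher plastid genes encode ribosomal proteins: rpl36, rpl22, rpl14, rps3, rpl16 and rps16. Of these rpl36 was at 1941, 2394 and 1252 in 35S:AGL15 and 137, 483 and 218 in the double mutant, 7.39-fold higher (log2 difference 2.88 ± 0.45 (SE), adjusted p = 0.00913), and rpl22 at 935, 1670.2 and 665 in 35S:AGL15 and 109, 204 and 123 in the double mutant, 7.24-fold higher (log2 difference 2.86 ± 0.37 (SE), adjusted p = 0.0055). Wild type was higher again, at 3156, 3164 and 2739.9 for rpl36 and 2305, 2640.5 and 1985 for rpl22, so the double mutant was the lowest genotype with no overlap. The lower ones, psbT, atpH, ndhD, petD and psaC, encode parts of the photosynthetic membrane complexes and of the plastid NADH dehydrogenase-like complex, with log2 differences from −1.66 to −0.89. With spike-in scaling 6 plastid genes were called higher and none lower.

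The called mitochondrial genes were all lower in 35S:AGL15, with 7 of 16 lower, none higher and a median of −0.88. On other scales 8 were lower after quantile normalization and after median centring, and none passed with spike-in scaling, although the median stayed below zero at −0.35. The gene nad5, a subunit of respiratory complex I, was at 223, 169 and 143 in 35S:AGL15 and 635, 552 and 517 in the double mutant, 3.22-fold lower (log2 difference −1.69 ± 0.21 (SE), adjusted p = 0.00482). Wild type was lower still, at 108, 112 and 129. The genes nad4, cox1, a subunit of cytochrome oxidase, and matR, a maturase, were lower by log2 differences of −1.57, −1.24 and −1.33. Their calls ended without any of 4, 7 and 7 single arrays (highest adjusted p = 0.096, 0.1 and 0.137). In nad4 double mutant replicate 1 stood high, at 3269 against 1389 and 1238 in the others.

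Of 13 nuclear photosynthesis genes, 1 was higher and 2 were lower (23.1% called, median −0.36, 0.17 with spike-in scaling, under which none was called). PSBY (AT1G67740), a photosystem II subunit, was at 984, 1726 and 1114 in 35S:AGL15 and 2920.1, 2729.6 and 2635 in the double mutant, 2.23-fold lower (log2 difference −1.16 ± 0.24 (SE), adjusted p = 0.0201), and LHCB4.2, an antenna protein, was lower, at −1.06 on the log2 scale. PRK (AT1G32060), phosphoribulokinase of the Calvin cycle, was at 405, 539 and 393 in 35S:AGL15 and 241, 260.1 and 232 in the double mutant, 1.81-fold higher (adjusted p = 0.0292). These 3 calls ended without any of 4, 8 and 5 single arrays (highest adjusted p = 0.0688, 0.15 and 0.0953). The stomatal regulators MUTE and SPCH were not called, and all arrays but 1 were below background for them.

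**Figure D4:**
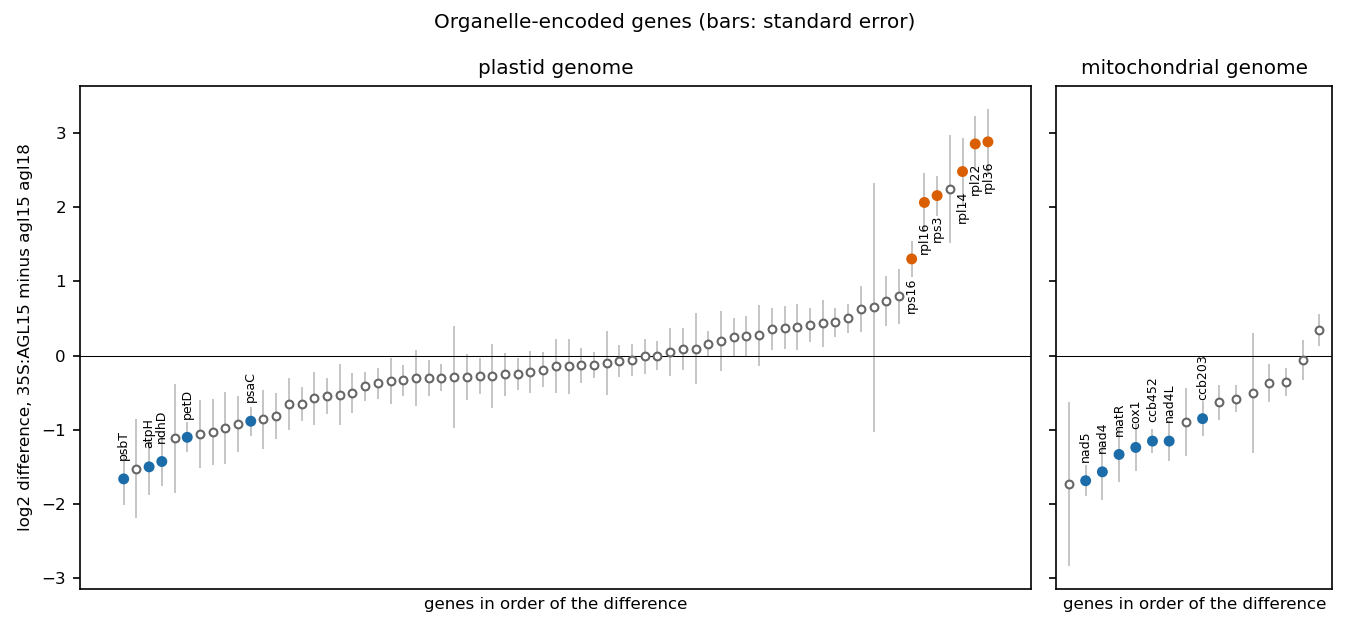
Log2 difference of 35S:AGL15 from the double mutant (vertical axis) for the 69 plastid and 16 mitochondrial genes, in order of the difference, with the standard error as bars. Filled points were called: 6 plastid ribosomal protein genes higher (orange), and 5 plastid and 7 mitochondrial genes lower (blue).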

How the data were processed

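RNA of 9 cultures was measured on Affymetrix arrays with 22810 probe sets. Per the labels' protocols, total RNA was extracted with Trizol, purified on a column and labelled with biotin. The authors deposited 1 linear intensity per probe set and array, scaled so that every array has nearly the same mean once 2% of probe sets are trimmed at each end (500.04 to 500.06). How probes were summarised or corrected for background is not given in the sources used here.

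Their log2 was taken without an offset. The 64 array controls were left out, and limma 3.58.1 (lmFit, eBayes) in R 4.3.3 estimated a mean per genotype from all 9 arrays. P-values are two-sided and Benjamini-Hochberg adjusted over 22746 probe sets; "called", "higher", "lower", "rose" and "fell" refer to an adjusted p under 0.05. They measure the spread between these samples only, and the number of arrays limits precision. Values are given in the order of replicates 1, 2 and 3. The highest of 27 Bacillus control probe sets served as the background level of an array (13.7 to 40.5), above which 69.2% to 84.5% of probe sets lay. Folds are ratios of geometric means. With 1 array of the lower group above background no fold is given.

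Of the probe sets, 13513 match 1 gene of the reference table (TAIR10.1), 503 several and 8730 none. Lists were matched by symbol, synonym or locus. The brightest probe set stood for a gene in lists and counts, and the one with the largest change among the 20 largest differences. Named genes were AGL18, the 20 largest differences in each direction among genes called on both the deposited and the quantile scale, without overlap and with the higher group above background, and up to 4 called members of a list (up to 2 uncalled members where none was called). Members and the 39 lists were chosen with earlier results of these data known. Promoter motifs were not analysed here.

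Arrays of the same number did not deviate together (r = 0.002, 0.022 and −0.006), so the numbers were not used as pairs. Alternatives were 3 other scalings, filters on dim probe sets, fits on 6 arrays, with a replicate block, with a term for arrays with brighter spiked controls, with array weights or an intensity trend, an offset of 32, a minimum of 1.5-fold, and leaving out each array.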

Additional observations from a re-analysis of the deposited data

How the results depend on the processing

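Counts of probe sets called are given as all, higher and lower in 35S:AGL15, beside 3567, 2369 and 1198. Spike-in scaling gave 2113, 1968 and 145, median centring 3738, 1210 and 2528, and the 6 arrays alone 867, 557 and 310. Quantile normalization of those 6 arrays, chosen after seeing the data, gave 991, 470 and 521. The term for arrays with brighter spike-in controls gave 290, 147 and 143, and array weights 7921, 4508 and 3413. The replicate block gave 2066, 1427 and 639, although the numbers do not pair the arrays. Leaving out 1 array in turn gave 1032 to 4192, 681 to 2356 and 338 to 1977. The median over all probe sets became −0.197 with median centring, 0.604 with spike-in scaling and −0.1125 with values raised to background. Of the 40 largest differences, 13 calls remained without the dimmest 40% of probe sets, since only 13 of these probe sets are among the brighter ones, and 13 with the term for brighter arrays. Of 570 genes on the lists, 106 were called, against 71 with spike-in scaling, 34 on the 6 arrays, 41 after their own quantile normalization, 10 with the term for brighter arrays, 228 with array weights and 41 to 115 without 1 array.

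Some uncalled genes changed sign. AGL18 was at 0.23 with spike-in scaling and 0.21 with the term for brighter arrays, UFO at 0.33 and 0.51, and BBM at 0.48 with spike-in scaling and 0.0048 with array weights. UFO ran from −0.84 to 0.31 and BBM from −0.25 to 0.18 without 1 array. Without 35S:AGL15 replicate 3 and double mutant replicate 1 together, UFO was at −1.19 and BBM at 0.27. Spike-in scaling gave GPDHC1 0.17, GID1B 0.073 and GID1C 0.086. Values raised to background gave MUTE −0.41, SPCH −0.32 and PUB15 −0.41. SPCH was at −0.75 with array weights and ran from −0.0069 to 1.57 without 1 array. The cause was not tested. No call of a named gene changed direction under an alternative. Low signal limits the dim genes: 20 of the 40 largest differences rest on a group below background.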

Other observations

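Most called genes, 1832 of 1938, lay outside the lists. TRICHOME BIREFRINGENCE-LIKE proteins, which acetylate cell wall polysaccharides, had 2 of 22 genes higher and 2 lower in 35S:AGL15. Of all genes 10.2% were higher and 4.36% lower, so these counts show no clear lean of the family. After quantile normalization 2 were higher and 4 lower. TBL38 (AT1G29050) was at 242, 269 and 213 in 35S:AGL15 and 61.8, 73.3 and 44.5 in the double mutant, 4.1-fold higher (log2 difference 2.04 ± 0.26 (SE), adjusted p = 0.00518; limma), while TBL34 was 2.54-fold higher. TBL25 and TBL39 were lower, at log2 differences of −0.82 and −0.58. The double mutant arrays were low together in TBL38, with no overlap. These genes were found by their symbol prefix after the values were seen.

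Adjacent genes moved together in a few places. Among 5813 pairs of neighbouring genes that were both measured, 87 pairs were both higher, 12 both lower and 52 were called in opposite directions. Of the measured neighbours of higher genes 13.6% were higher, beside 11.0% of all neighbours, and for lower genes the shares were 4.55% and 4.53%. The strongest run was AT5G38160, AT5G38170 and AT5G38180. LD and its neighbour AT4G02550 were both higher (1.95 and 1.79 on the log2 scale), as were AT1G13920 and AT1G13930, the latter at 5327, 4574 and 7694 in 35S:AGL15 and 1777, 1375 and 1392 in the double mutant. AT1G13920 was dim, above background on 2 arrays of 35S:AGL15 and below it on every double mutant array. AT1G65490 and AT1G65500 were both lower (−2.19 and −1.74).

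Where a gene had several probe sets, the calls did not conflict. Of 147 such genes, 8 had at least 2 called probe sets, each of them in 1 direction, and none was called in both directions. The plainest case was AT1G79150, whose probe sets read 388, 464 and 346 and 458, 583 and 334 in 35S:AGL15 and 114, 119 and 121 and 109, 146 and 122 in the double mutant (log2 differences 1.75 and 1.84).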
